A study of Mus musculus with 12 samples.

Results

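Mitochondrial ribosomal protein genes were taken as the protein-coding genes whose symbol begins with Mrpl or Mrps followed by a digit. The rule used names and no measured value. It found 77 of the 47643 genes in the deposited tables, 48 Mrpl genes named for the large subunit and 29 Mrps genes named for the small subunit. The mitochondrial ribosome translates the mRNAs of the mitochondrial genome, which encode core parts of the respiratory complexes and of ATP synthase. Its ribosomal RNAs come from that genome, whereas its proteins are encoded in the nucleus, made in the cytosol and imported. Some of these proteins have counterparts in bacterial ribosomes and others are found in mitochondria alone.

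Poly(A) RNA was sequenced in bulk from 6 pieces of pancreatic tumor of old mice (Old tumor) and 6 of young mice (Young tumor). Both groups carry KPC4662, a cell line from a mouse pancreatic ductal adenocarcinoma that the labels class as epithelial, so 1 line underlies all 12 libraries and the groups differ by the age of the host. The labels name no treatment, age, strain, sex or site of implantation. Pieces may or may not stem from separate mice, which the labels leave unsaid, and p-values therefore measure only how these pieces vary. Old tumor libraries held 17.8M to 24.1M counts and Young tumor libraries 20.1M to 23.1M. Each of the 77 genes had at least 135 counts in every library, a minimum set by Mrpl57. Summed ductal epithelial markers, such as the keratin genes Krt8 and Krt19, stood at 5131 to 8282 CPM (counts scaled to library size with TMM factors) in Old tumor libraries and at 5418 to 9968 CPM in Young tumor libraries, ranges that overlap. In a bulk piece, fewer cells of a type and less RNA per cell cannot be told apart.

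The comparison asked how these genes differed with the age of the host. All 77 passed the filter on low counts, and 9 of them were lower in Old tumor libraries at an adjusted p under 0.05 over the 16013 tested genes (edgeR quasi-likelihood test, Benjamini-Hochberg). None was higher, nor was any with DESeq2 or limma-voom. The 9 genes make up 11.7% of the members, against 1.47% of all tested genes called lower, and 0.793% of all tested genes were called higher. They were Mrpl12, Mrpl14, Mrpl15, Mrpl18, Mrpl22 and Mrpl53 of the large subunit and Mrps12, Mrps14 and Mrps18c of the small subunit. The reductions were modest, with log2 fold changes (Old tumor over Young tumor) between −0.48 and −0.31 among the 9. Nearly all members lay on one side: 76 of 77 log2 fold changes were below 0, against 45.8% of all tested genes, and 53 of 77 were below 0 on log2(TPM + 1), a scale on which the median of all tested genes moved to 0.13. At an unadjusted p under 0.05, 49 of 77 were lower, against 10.4% of all tested genes, and none was higher. At an adjusted p under 0.1, 29 were lower, against 4.53% of all tested genes. The median over the members was −0.23, against 0.03 over all tested genes. It was −0.25 over the Mrpl genes and −0.17 over the Mrps genes, a difference that was not tested.

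**Figure D1:**
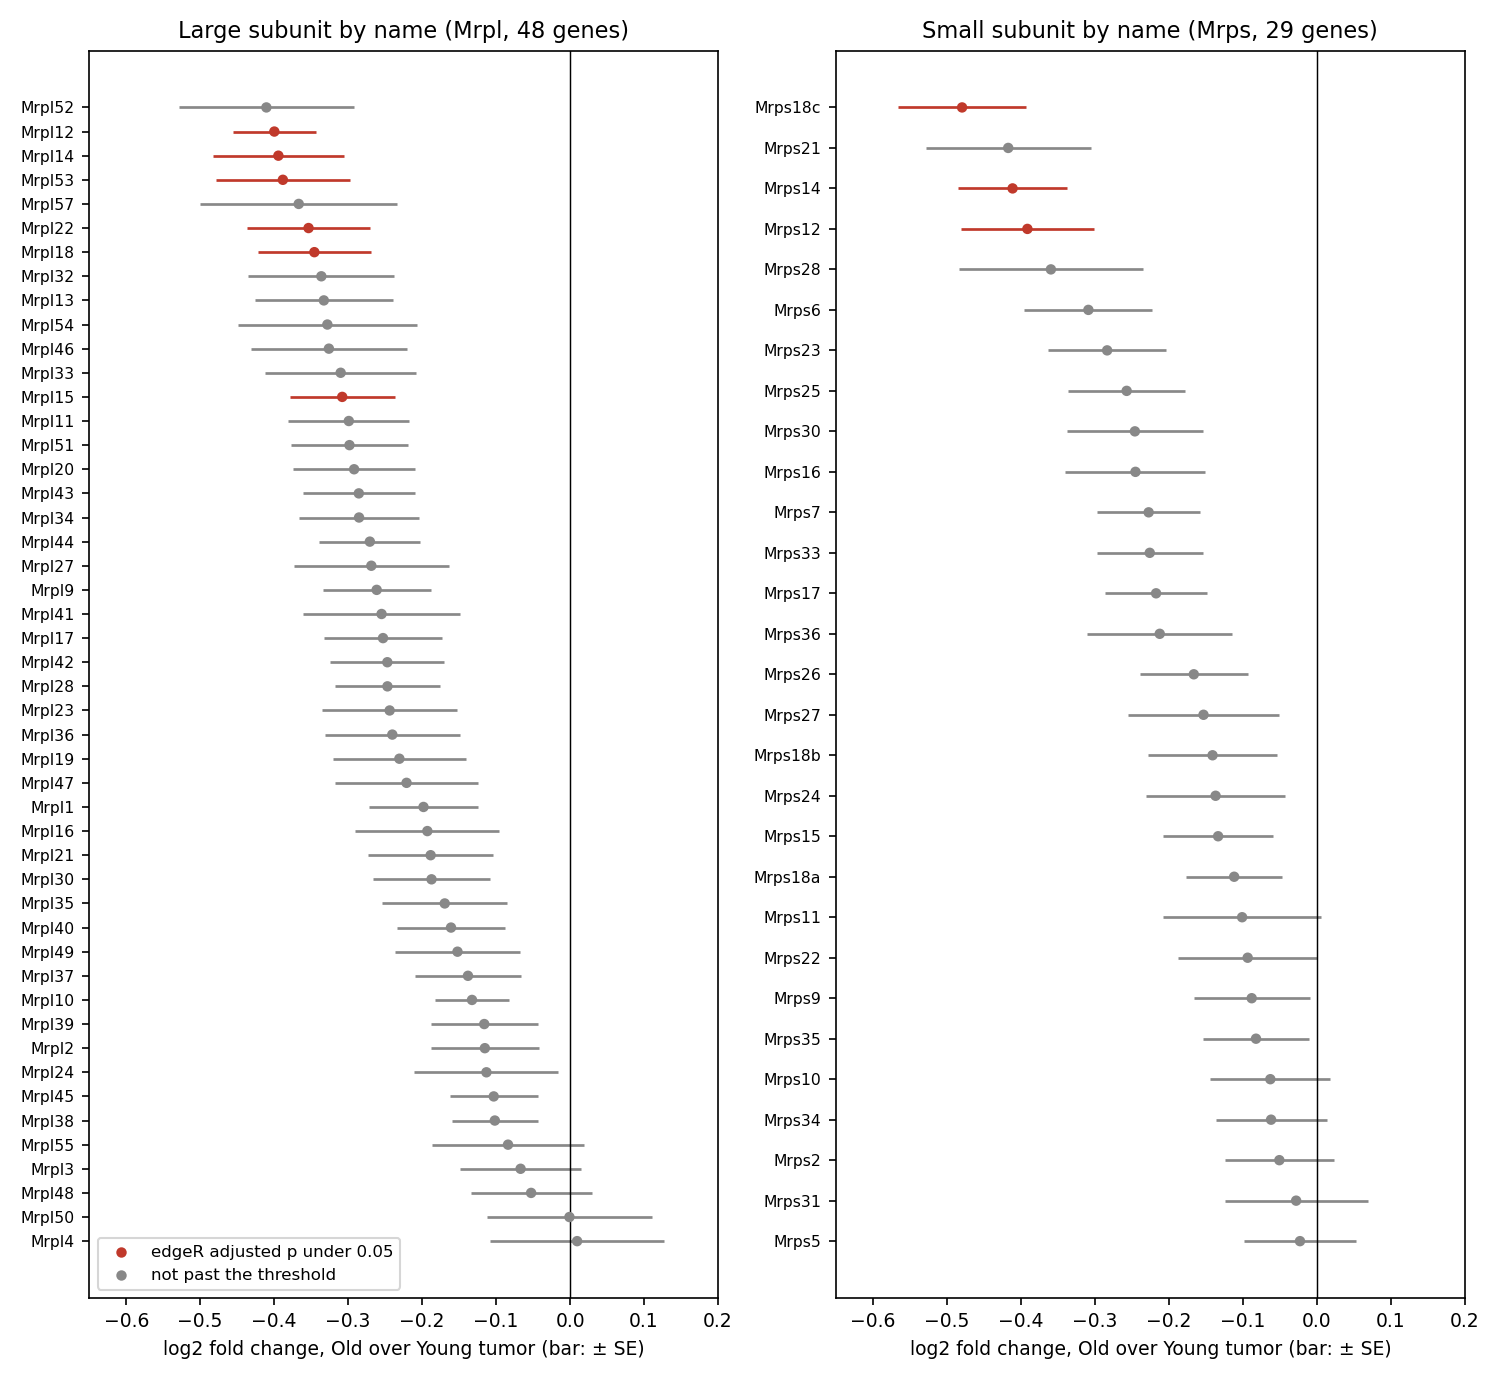
Log2 fold change, Old tumor over Young tumor, of the 48 Mrpl genes (left) and 29 Mrps genes (right), ordered by size within each panel, with bars of ± 1 SE. Red marks the 9 genes with an edgeR adjusted p under 0.05, and Mrpl4 is the single point above 0.

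The count of 9 rested on which libraries entered. It fell to 0 without Old tumor 3, to 1 without Old tumor 2, Old tumor 5, Old tumor 6, Young tumor 1 or Young tumor 4, to 2 without Old tumor 4 or Young tumor 5, to 3 without Young tumor 2 and to 6 without Young tumor 6. It stayed at 9 without Young tumor 3 and came to 23 without Old tumor 1. The background moved with it: without Old tumor 3, 0% of all tested genes were called lower and 8.87% had an unadjusted p under 0.05, against 42 of the 77 members. Without Old tumor 1, 4.17% of all tested genes were called lower. In the omissions that left 1 or 2 members called, this share was 0.0433% to 0.253%. It was 0.394% where 3 members were called, 0.538% where 6 were and 1.77% where 9 were. The median log2 fold change of the members stayed between −0.25 and −0.20 over these 12 omissions. With DESeq2, 32 members were lower, against a background of 5.41%. With limma-voom, run with quality weights on the libraries, 17 were lower, against 3.49%. On log2(TPM + 1) with limma, none passed (0.3% of all tested genes did), 18 were lower at an unadjusted p under 0.05, against 3.85%, and the median of −0.08 lay 0.21 below that of all tested genes.

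The lowest p of the 77 belonged to Mrpl12 (ENSMUSG00000039640, chromosome 11, 120484613 to 120489065, plus strand, GRCm38). Its protein is the mitochondrial counterpart of bacterial L7/L12, which forms the flexible stalk that recruits translation factors, and in human cells it also binds the mitochondrial RNA polymerase. Mrpl12 ran from 49.1 through a median of 50.6 to 52.4 CPM in Old tumor libraries, against 62.3, 66.5 and 72.8 CPM as lowest, median and highest in Young tumor libraries. The groups did not overlap, and the 6 Old tumor values lay within a narrow band below the lowest Young tumor value. The log2 fold change was −0.40 (SE 0.06; adjusted p = 0.0144, edgeR), and Mrpl12 passed in 11 of the 12 fits that each left out 1 library. The adjusted p ranged from 6.47e-09 to 0.58 over the 30 alternative fits, and Mrpl12 passed in 22 of them.

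Mrps18c (ENSMUSG00000016833, chromosome 5, 100798627 to 100804471, plus strand) had the largest reduction of the members. Its product is 1 of 3 mitochondrial relatives of bacterial S18 and sits on the platform of the small subunit. Lowest, median and highest values were 23.8, 26.0 and 31.4 CPM in Old tumor libraries and 33.6, 35.1 and 43.2 CPM in Young tumor libraries. No Old tumor value reached the lowest Young tumor value, and Old tumor 1 at 31.4 CPM stood apart from the other Old tumor libraries, the next of which had 26.5 CPM. The log2 fold change was −0.48 (SE 0.09; adjusted p = 0.0302, edgeR), and −0.55 without Old tumor 1. Mrps18c passed in 4 of the 12 fits that left out a library, with adjusted p from 0.00982 to 0.0753. The other relatives of S18, Mrps18a and Mrps18b, did not pass: their log2 fold changes were −0.11 (SE 0.07; adjusted p = 0.342, edgeR) and −0.14 (SE 0.09; adjusted p = 0.371, edgeR). The difference between the 3 paralogs was not tested. Mrps18a stood at 39.9 to 44.2 CPM in Old tumor libraries and 41.3 to 51.6 CPM in Young tumor libraries, and its small difference changed sign on log2(TPM + 1), at 0.02.

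Mrps14 (ENSMUSG00000058267, chromosome 1, 160195215 to 160202170, plus strand) encodes a protein of the head of the small subunit. Old tumor libraries had 21.1, 23.8 and 25.5 CPM as lowest, median and highest, and Young tumor libraries 27.5, 32.2 and 34.3 CPM. The groups again did not overlap, and the log2 fold change was −0.41 (SE 0.07; adjusted p = 0.0302, edgeR). Mrps12 (ENSMUSG00000045948, chromosome 7, 28739641 to 28741820, minus strand), whose bacterial counterpart S12 lines the decoding centre, had 16.1, 19.0 and 21.0 CPM in Old tumor libraries and 21.1, 24.6 and 26.7 CPM in Young tumor libraries. The highest Old tumor value and the lowest Young tumor value of Mrps12 nearly touched, and the log2 fold change was −0.39 (SE 0.09; adjusted p = 0.0437, edgeR). Of the fits that left out a library, 6 of 12 kept the call of Mrps14 and 2 of 12 that of Mrps12.

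**Figure D2:**
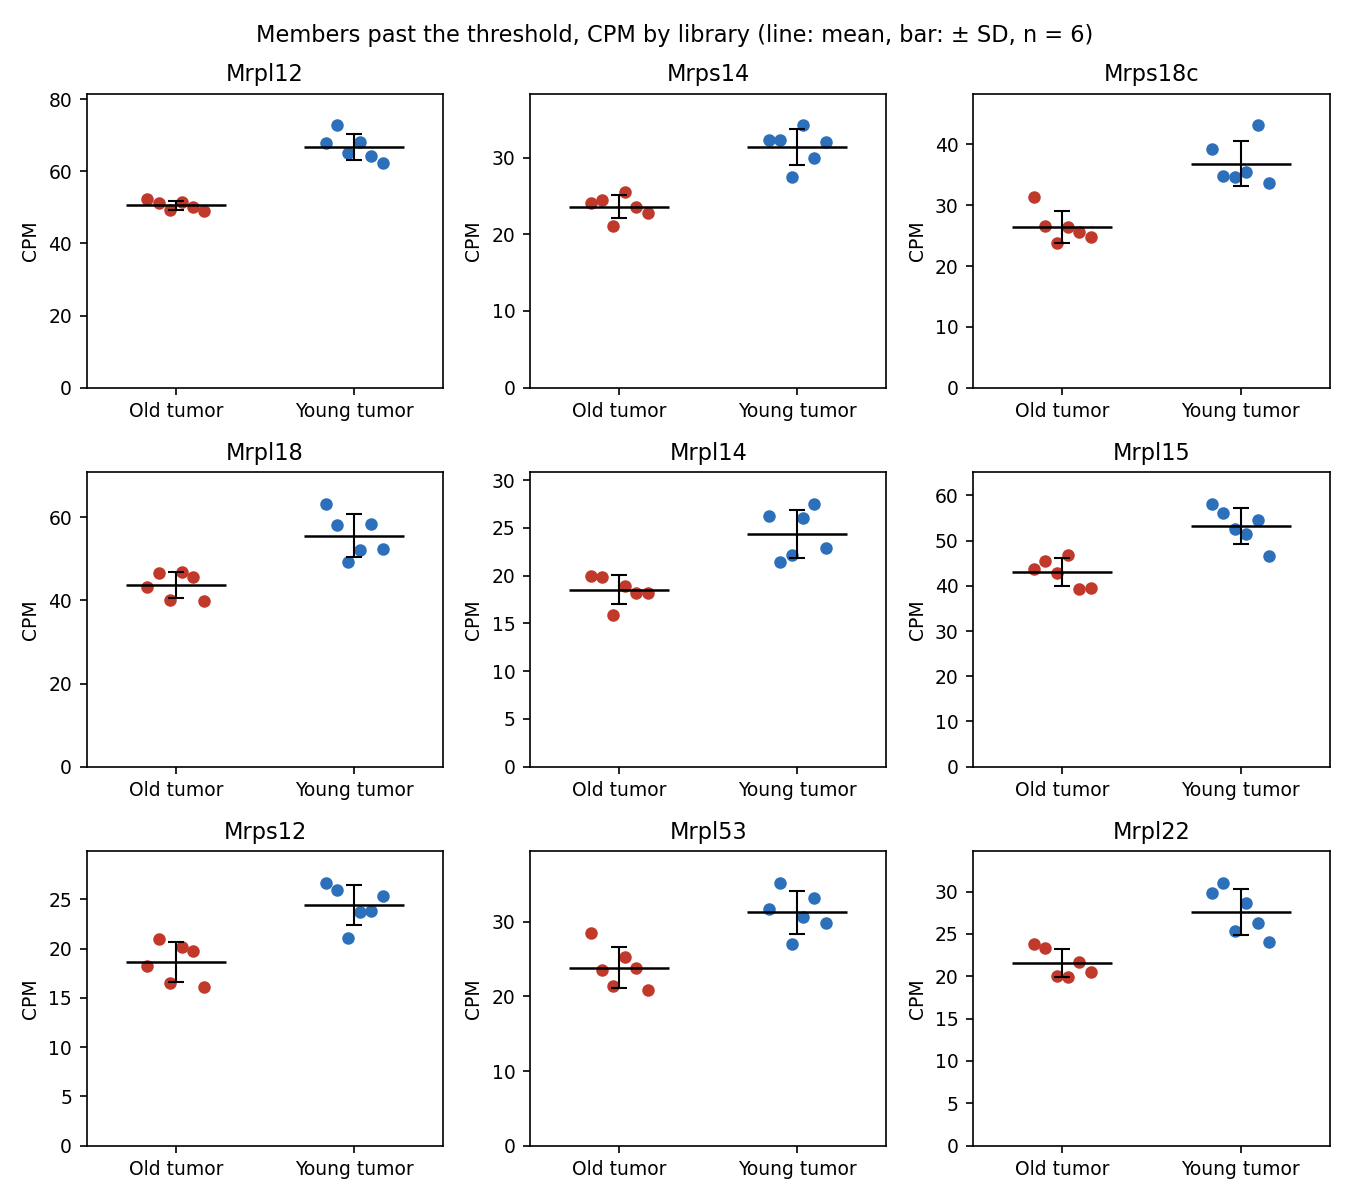
CPM in each library for the 9 genes lower in Old tumor, with Old tumor libraries on the left and Young tumor libraries on the right of each panel. Points are libraries, the long line is the mean and the bar ± 1 SD (n = 6 per group), and each axis starts at 0. Mrpl12 shows the tightest Old tumor group, at 49.1 to 52.4 CPM.

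The remaining 5 genes that passed belong to the large subunit. Mrpl18 (chromosome 17, 12911349 to 12916345, minus strand) encodes a protein of the central protuberance, the ridge of the large subunit that faces the head of the small one. It stood at 39.9, 44.5 and 46.9 CPM (lowest, median, highest) in Old tumor libraries and at 49.3, 55.2 and 63.2 CPM in Young tumor libraries, with no overlap and a log2 fold change of −0.35 (SE 0.08; adjusted p = 0.0381, edgeR). Mrpl14 (chromosome 17, 45686322 to 45698495, plus strand), whose protein lies on the face that meets the small subunit, had 15.9, 18.6 and 20.0 CPM in Old tumor libraries and 21.4, 24.4 and 27.5 CPM in Young tumor libraries. These did not overlap either, and the log2 fold change was −0.39 (SE 0.09; adjusted p = 0.0424, edgeR).

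Mrpl22 (chromosome 11, 58171661 to 58179565, plus strand) encodes a protein that reaches into the tunnel through which new chains leave. Its values were 20.0, 21.1 and 23.8 CPM in Old tumor libraries and 24.1, 27.5 and 31.0 CPM in Young tumor libraries, without overlap (log2 fold change −0.35, SE 0.08, adjusted p = 0.0469 by edgeR). Mrpl15 (chromosome 1, 4773206 to 4785739, minus strand), counterpart of bacterial L15, had 39.4, 43.3 and 46.9 CPM in Old tumor libraries and 46.6, 53.6 and 58.1 CPM in Young tumor libraries. Mrpl53 (chromosome 6, 83109040 to 83109939, plus strand) has no bacterial counterpart and sits at the base of the stalk. It had 20.9, 23.7 and 28.5 CPM in Old tumor libraries and 27.0, 31.1 and 35.2 CPM in Young tumor libraries. In both genes 1 library crossed: the highest Old tumor value, in Old tumor 4 for Mrpl15 and Old tumor 1 for Mrpl53, exceeded the lowest Young tumor value. Their log2 fold changes were −0.31 (SE 0.07; adjusted p = 0.0437, edgeR) and −0.39 (SE 0.09; adjusted p = 0.0444, edgeR). Each of Mrpl14, Mrpl15, Mrpl18, Mrpl22 and Mrpl53 passed in 2 of the 12 fits that left out a library.

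Complete separation of the groups, with every Old tumor library below every Young tumor library, occurred in 13 of 77 members (16.9%), against 1.97% of all tested genes, and the reverse order in none, against 0.999%. Beside 7 of the 9 called genes, these were Mrpl10, Mrpl11, Mrpl44, Mrps7, Mrps17 and Mrps25. Mrpl44, an RNase III relative of the large subunit, had 23.6, 26.4 and 27.8 CPM in Old tumor libraries and 28.3, 31.7 and 32.8 CPM in Young tumor libraries, and it missed the threshold at a log2 fold change of −0.27 (SE 0.07; adjusted p = 0.055, edgeR). Mrps25, a small-subunit protein found in mitochondria alone, had 57.4, 63.2 and 67.9 CPM in Old tumor libraries and 68.9, 71.7 and 90.2 CPM in Young tumor libraries. Mrps7, a head protein, had 38.5, 40.8 and 43.2 CPM in Old tumor libraries and 43.9, 47.1 and 56.0 CPM in Young tumor libraries. Neither passed (log2 fold change −0.26, SE 0.08, adjusted p = 0.0923 by edgeR for Mrps25, and −0.23, SE 0.07, edgeR adjusted p = 0.089 for Mrps7), and on the log2(TPM + 1) scale the difference of Mrps7 was 0.005. In 47 of 77 members (61% of them, against 12.1% of all tested genes) the 6 Old tumor libraries all lay below the Young tumor median.

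At the other end, Mrpl4, a protein of the core of the large subunit, had the single fold change above 0, of 0.01 (SE 0.12; adjusted p = 0.972, edgeR). It ranged from 12.9 to 22.0 CPM in Old tumor libraries and from 17.4 to 19.7 CPM in Young tumor libraries, so the Old tumor group spanned the Young tumor group on both sides, and its sign turned in many alternative fits. Mrpl50, chosen after its values were seen, was at −0.0009 (SE 0.11), with 64.2 to 99.98 CPM in Old tumor libraries and 68.1 to 88.9 CPM in Young tumor libraries. The standard deviation of log2 CPM within a group had a median over the 77 genes of 0.12 in Old tumor and 0.12 in Young tumor libraries, and Mrpl4 (0.29), Mrpl57 (0.26) and Mrpl50 (0.25) varied most among Old tumor libraries.

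Levels between genes were compared per length, as TPM averaged over the 12 libraries. Mrps21, a small-subunit protein, was the most abundant at 233 TPM, followed by the large-subunit genes Mrpl33 at 159 TPM and Mrpl28 at 149 TPM. Mrps21 averaged 210 ± 33.1 TPM in Old tumor libraries and 257 ± 25.1 TPM in Young tumor libraries, Mrpl33 144 ± 17.3 and 173 ± 17.98 TPM, and Mrpl28 141 ± 13.5 and 157 ± 10.6 TPM, in that order (SD, n = 6 each). The TPM of single libraries overlapped between the groups in all 3 genes. Old tumor and Young tumor libraries ran from 164 to 247 and 229 to 290 TPM for Mrps21. They ran from 121 to 167 and 149 to 199 TPM for Mrpl33, and from 124 to 161 and 145 to 169 TPM for Mrpl28. The least abundant were Mrpl57 at 7.89 TPM, Mrpl1, which forms the stalk that guides deacylated tRNA out, at 17.4 TPM, and Mrpl11, of the stalk base, at 19.9 TPM. Of these 6 genes none passed edgeR's test, with log2 fold changes from −0.42 (SE 0.11; adjusted p = 0.0615, edgeR) for Mrps21 to −0.20 (SE 0.07; adjusted p = 0.147, edgeR) for Mrpl1. DESeq2 called Mrps21, Mrpl28 and Mrpl11 lower, and limma-voom Mrps21, Mrpl28 and Mrpl57.

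Summed over all 77 genes, the members took 0.264 ± 0.0118% of counts in Old tumor libraries and 0.299 ± 0.0102% in Young tumor libraries (SD, n = 6 each). The Old tumor shares ran from 0.247% to 0.279% and the Young tumor shares from 0.288% to 0.316%, so the groups did not overlap. As a share of TPM the members took 0.472% to 0.503% in Old tumor libraries and 0.51% to 0.543% in Young tumor libraries, again without overlap and with a narrower gap. Summed large-subunit TPM was 1.52 to 1.60 times summed small-subunit TPM in Old tumor libraries and 1.54 to 1.61 times in Young tumor libraries, so the balance of the subunits overlapped. In single libraries, 42 to 72 of the 77 genes were below their own median over the 12 libraries in Old tumor, against 10 to 33 in Young tumor. The same count was not made over all tested genes, so these counts have no background beside them. Old tumor 4, with 42, was the Old tumor library nearest to the Young tumor group, and Young tumor 3, with 33, the Young tumor library nearest to the Old tumor group.

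**Figure D3:**
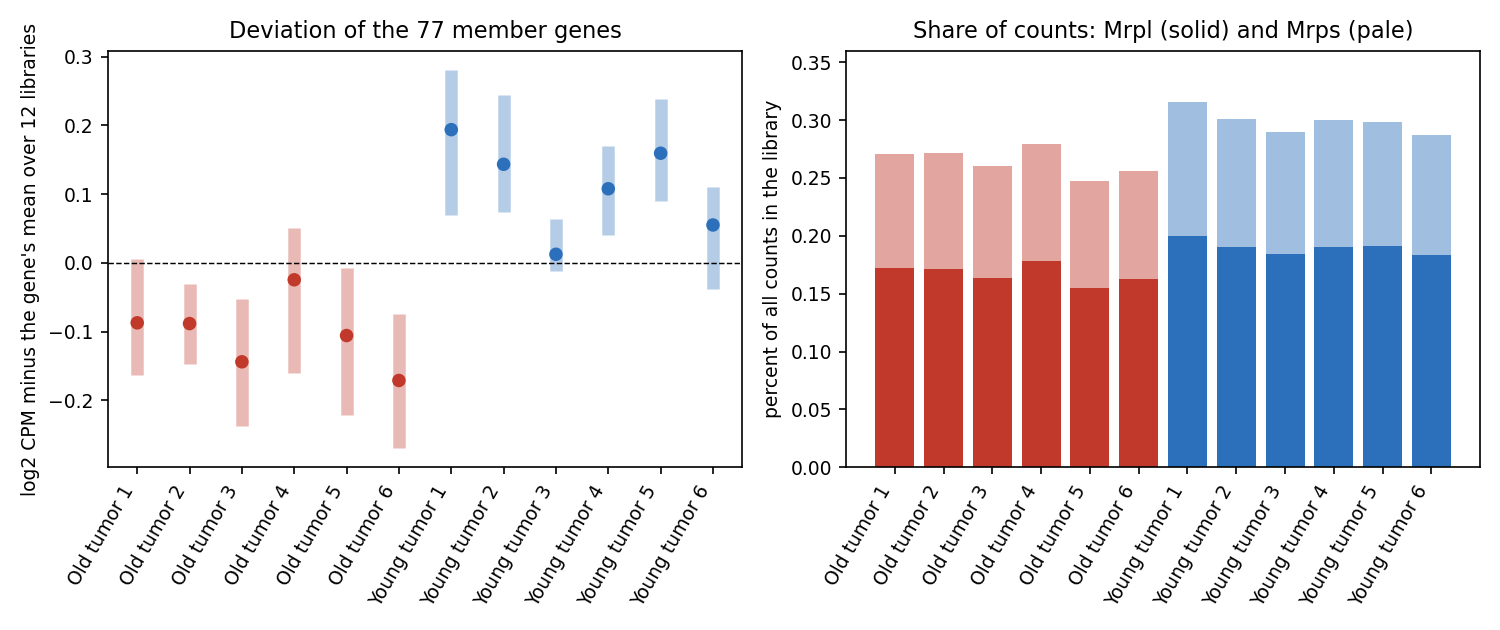
Left: per library, the median (point) and interquartile range (bar) of the 77 genes' log2 CPM minus each gene's mean over the 12 libraries, with Old tumor in red and Young tumor in blue. Right: percent of all counts in Mrpl genes (solid) and Mrps genes (pale), with an axis from 0, at 0.247% to 0.279% in Old tumor and 0.288% to 0.316% in Young tumor libraries.

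Grouped by position in ribosome structures, a grouping made after the values were seen, the stalk and its base (Mrpl10, Mrpl11, Mrpl12, Mrpl53 and Mrpl54) had a median log2 fold change of −0.33 with 2 of 5 called, beside 11.7% of all members and 1.47% of all tested genes. The platform of the small subunit (Mrps6, Mrps11, Mrps18c and Mrps21) had a median of −0.36 with 1 of 4 called. The rim of the exit tunnel stood at −0.23 with 1 of 6 called, the central protuberance at −0.16 with 1 of 5, and the head of the small subunit at −0.16 with 1 of 4. The group named for the core around the peptidyl transferase centre held Mrpl2, Mrpl3 and Mrpl4 alone, with a median of −0.07 and none called. Other members, such as Mrpl16, Mrpl27 and Mrps24, were placed in none of these groups, so each median holds only for the genes assigned. Proteins with a bacterial counterpart, 46 genes including Mrps18c, had a median of −0.24 with 8 called. Proteins found in mitochondria alone, 29 genes, had a median of −0.21 with Mrpl53 called. Mrps18a, whose product lies in the large subunit, and Mrps18b were kept apart as S18 paralogs, with a median of −0.13 and none called. Mrps30, whose product also lies in the large subunit despite its name, had a log2 fold change of −0.25 (SE 0.09; adjusted p = 0.15, edgeR). Mrps36, whose product has since been assigned to the oxoglutarate dehydrogenase complex, was at −0.21 (SE 0.10; adjusted p = 0.234, edgeR). Most of these groups hold 1 called gene or none, so their counts say little, and differences between them were not tested.

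The members are short, and across the whole table the fold change followed length. The effective length of a gene, its count divided by its TPM and set to 1 at the median tested gene, had a median of 0.39 over the members. Of the 77 genes, 30 fell in the shortest of 10 equal bins of all tested genes, whose median log2 fold change was −0.21, while the longest bin had a median of 0.18. The slope of log2 CPM on log2 effective length, each gene taken relative to its mean over all libraries, ran from −0.004 to 0.099 in Old tumor libraries and from −0.098 to −0.004 in Young tumor libraries. Among the members themselves the log2 fold change and log2 effective length had a Pearson r of 0.43 and a Spearman rho of 0.42, given as a description over 77 genes measured in the same 12 libraries. The shortest 26 members had a median log2 fold change of −0.28 with 5 called, the middle 25 −0.16 with 3 called and the longest 26 −0.16 with 1 called, Mrpl12 at a relative length of 0.53. Of all tested genes, 6.74% were called lower in the shortest of the 10 bins, 4.1% in the second and 1.39% in the third, so the share called fell with length there too. Mrps18c, at 0.18, and Mrpl14, at 0.22, are among the shortest.

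Genes of like length and abundance give a nearer background. In the CPM range of the members and the interquartile range of their effective lengths lay 1045 genes, of which 4.88% were called lower and 78.9% had a fold change below 0, with a median of −0.15. The 39 members in that window had 4 called (10.3%) and 38 below 0. With the trend on effective length removed from each library, a setting added after the data were seen, no member passed, nor did any tested gene pass as lower (0%). In that fit the median of the members was −0.14, against −0.02 over all tested genes, 68 of 77 were below 0, and 24 had an unadjusted p under 0.05, 31.2% of the members against 9.59% of all tested genes. Mrpl12 was at −0.35 in that fit (unadjusted p = 0.000161), Mrps18c at −0.30 (unadjusted p = 0.001) and Mrps14 at −0.29 (unadjusted p = 0.00222). With a trend on exon length removed in its place, Mrpl12, Mrpl15, Mrps14 and Mrps18c passed, against a background of 0.6%.

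**Figure D4:**
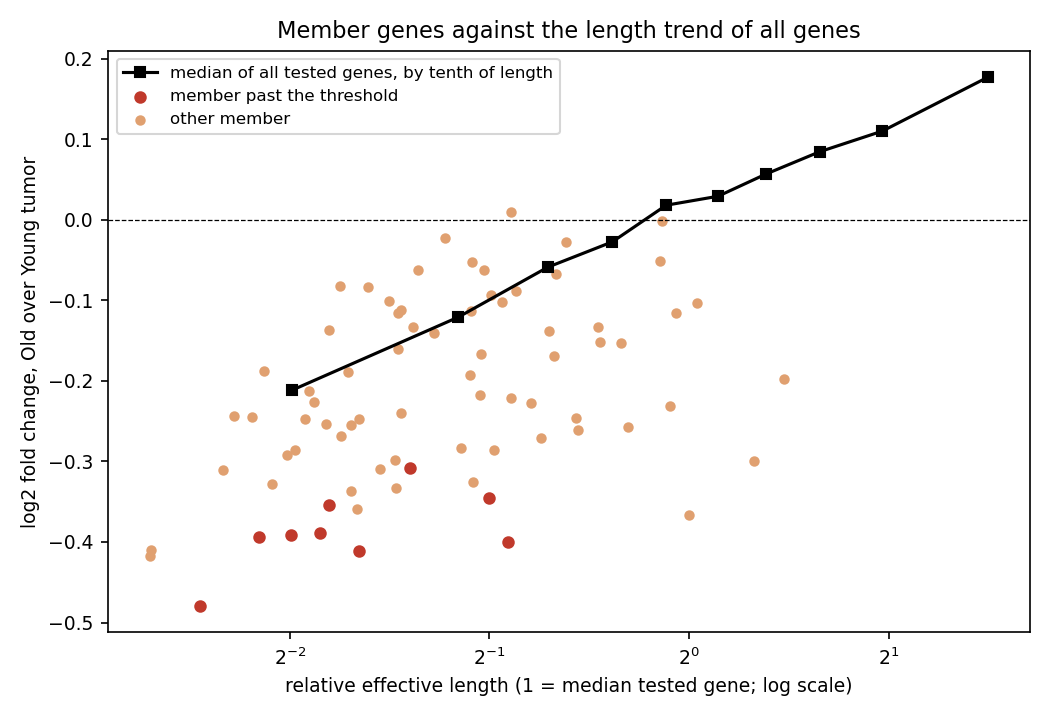
Log2 fold change, Old tumor over Young tumor, against relative effective length on a log2 axis (1 is the median tested gene). Black squares join the medians of all tested genes in 10 bins of length, from −0.21 in the shortest to 0.18 in the longest. Red points are the 9 called members and pale points the other 68.

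Cell division genes were also lower in Old tumor libraries, and whether they varied with the members from library to library was not measured. Summed over the 25 genes of that list, such as Aurka and Cdk1, Old tumor libraries had 1028 to 1465 CPM. Young tumor libraries had 1573 to 2065 CPM, without overlap. All 25 genes had fold changes below 0, against 45.8% of all tested genes, and 9 were called lower, against 1.47%. With their score as a covariate no member passed and no tested gene passed as lower (0%). In that fit the median of the members was −0.19, 71 of 77 were below 0, and 16 had an unadjusted p under 0.05, 20.8% against 3.35% of all tested genes. With a score of acinar enzyme genes as a covariate, none of the members passed, against a background of 0.0687%, and 44 were lower at an unadjusted p under 0.05, against 9.25%, at a median of −0.23. Summed acinar markers stood at 11.9 to 18.9 CPM in Old tumor libraries and 11.7 to 40.6 CPM in Young tumor libraries, with 7 of 10 markers averaging under 1 CPM and 7 at 0 in some library. The part of these covariates in the difference was not tested.

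Of the 9 marker lists for ductal, fibroblast, macrophage, T cell, B cell, neutrophil, endothelial, acinar and adipocyte genes, none had a marker past the threshold of edgeR's test. Only 1 of 10 acinar, 1 of 5 B cell and 2 of 5 adipocyte markers passed the filter on low counts, so these lists were barely tested. Of the 45 tested markers, 6 were lower and 6 higher at an unadjusted p under 0.05 by edgeR. DESeq2 called Cd4 and Cd8a lower and Cdh5 and Cidec higher. Summed fibroblast markers ran from 1263 to 9640 CPM in Old tumor libraries and from 1447 to 3573 CPM in Young tumor libraries, with 0 of 9 markers below 0. Summed T cell markers ran from 5.69 to 23.6 CPM in Old tumor libraries and from 13.0 to 32.6 CPM in Young tumor libraries, with 7 of 7 below 0. Their part in the members' difference was not tested. With the ductal score as a covariate 10 members were lower, against 2.22% of all tested genes, and the median was −0.23.

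Promoters were compared because many nuclear genes for mitochondrial proteins are known to share binding sites for the ETS factor GABP and for NRF1. RefSeq promoter windows on GRCm38.p6, from 250 bases before to 50 bases after the start, matched 68 of the 77 genes and gave 74 windows of 300 bases. The ETS core CCGGAAG, searched on both strands, was in 33.8% of the members' windows, against 15.6% of windows of tested genes and 8.86% of all windows. The YY1 motif AAGATGGCG was in 10.8%, against 2.61% and 1.4%, and a strict palindromic form of the NRF1 motif in 4.05%, against 1.84% and 0.971%. The E-box CACGTG was in 9.46% of the members' windows, against 9.38% and 7.15%, the CCAAT box in 40.5%, against 37.2% and 37.4%, and TATAAA in 6.76%, against 7.89% and 13.6%. No motif in this set contains another, and the E-box and that NRF1 form read the same on both strands. Of the 9 called genes, 8 matched and 5 held the ETS core: Mrpl18, Mrpl22, Mrpl53, Mrps12 and Mrps18c. The median log2 fold change was −0.28 over the 25 members with the ETS core and −0.20 over the 43 without it, a difference that was not tested. A match is a run of letters and does not show binding.

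The windows of 4 called genes, chosen after their values were seen, are shown because the gene of lowest p holds none of the motifs marked and the other 3 hold the ETS core. Capitals mark the ETS core and the E-box, positions count from the RefSeq start with no 0, and each line reads 5′ to 3′ on the gene's own strand. Mrpl12 is at chr11:120484387-120484686 (plus), Mrps18c at chr5:100798509-100798808 (plus), Mrpl18 at chr17:12916042-12916341 (minus) and Mrps12 at chr7:28741772-28742071 (minus).
Mrpl12: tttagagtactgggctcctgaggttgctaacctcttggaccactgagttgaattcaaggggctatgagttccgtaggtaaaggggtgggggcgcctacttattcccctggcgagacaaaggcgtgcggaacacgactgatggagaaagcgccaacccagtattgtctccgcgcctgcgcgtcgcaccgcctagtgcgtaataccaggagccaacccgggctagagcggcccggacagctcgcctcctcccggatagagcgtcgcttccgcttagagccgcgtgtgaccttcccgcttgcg
Mrps18c: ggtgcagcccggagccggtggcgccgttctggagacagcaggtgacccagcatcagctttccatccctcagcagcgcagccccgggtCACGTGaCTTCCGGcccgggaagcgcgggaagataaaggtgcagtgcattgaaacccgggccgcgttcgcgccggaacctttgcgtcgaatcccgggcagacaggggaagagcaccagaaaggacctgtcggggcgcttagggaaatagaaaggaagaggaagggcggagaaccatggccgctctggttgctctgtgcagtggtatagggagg
Mrpl18: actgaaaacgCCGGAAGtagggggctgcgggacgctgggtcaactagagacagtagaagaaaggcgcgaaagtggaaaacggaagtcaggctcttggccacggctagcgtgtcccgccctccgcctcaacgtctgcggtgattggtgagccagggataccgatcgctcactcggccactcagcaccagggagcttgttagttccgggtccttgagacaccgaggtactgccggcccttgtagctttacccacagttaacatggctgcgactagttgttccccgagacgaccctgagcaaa
Mrps12: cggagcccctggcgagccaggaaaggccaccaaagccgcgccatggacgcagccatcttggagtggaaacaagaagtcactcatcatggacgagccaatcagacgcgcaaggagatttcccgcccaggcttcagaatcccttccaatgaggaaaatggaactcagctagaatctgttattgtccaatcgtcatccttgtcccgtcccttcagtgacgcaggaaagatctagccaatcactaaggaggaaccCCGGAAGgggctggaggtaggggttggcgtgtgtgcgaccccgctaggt
In Mrps18c the E-box starts at −163 and the ETS core, on the other strand, at −156, so 1 base lies between them. The ETS core starts at −240 in Mrpl18 and at 2 in Mrps12. The RefSeq start lies downstream of the start of the gene coordinates given above, by 254 bases in Mrpl18, 132 in Mrps18c and 24 in Mrpl12, and 1 base upstream in Mrps12. Counted from those gene starts, the ETS core begins at 15 in Mrpl18, at −24 in Mrps18c and at 1 in Mrps12, so all 3 lie near the annotated start.

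Many members share a start region with a gene on the other strand. Counting a tested protein-coding gene that starts within 1000 bases on the opposite strand, 31 of 77 members (40.3%) had such a neighbour, against 13.7% of 13980 tested protein-coding genes. In 1 pair, Mrpl46 and Mrps11, both genes are members, and 29 members had a neighbour outside the set. Of those 29 neighbours, 17 had fold changes below 0, against 45.8% of all tested genes. Among them 2 were called lower (1.47% of all tested genes were) and none higher. The median of the neighbours was −0.06, against −0.23 for their members. Neighbours were not matched to their members in length, which the fold change followed across all genes, and the difference was not tested. Mrps18c starts 29 bases from Helq, a DNA helicase gene, which stood at −0.06 (edgeR adjusted p = 0.796) beside −0.48 for Mrps18c. Mrpl14 starts 583 bases from Tmem63b, an ion channel gene, at 0.10 (edgeR adjusted p = 0.476) beside −0.39. Mrps12 starts 172 bases from Sars2, the mitochondrial seryl-tRNA synthetase gene, at −0.14 (edgeR adjusted p = 0.508) beside −0.39. Mrpl18 starts 644 bases from Tcp1, at −0.19 (edgeR unadjusted p = 0.0322, adjusted p = 0.194) beside −0.35. The called neighbours were Psma2, a proteasome subunit gene beside Mrpl32, at −0.33 (edgeR adjusted p = 0.0405), and Fau, which encodes a cytosolic ribosomal protein, beside Mrpl49, at −0.47 (edgeR adjusted p = 0.043). Neighbours were named after their values were seen. Of the members, 34 overlap a gene on the other strand and 13 a gene on the same strand, and the strand setting of the counting is not given in the sources used here, so reads of overlapping pairs may not be fully separated. Among the called genes, Mrpl12 (with Gm16755), Mrpl14 (with Tmem63b) and Mrpl18 (with Tcp1) overlap a gene on the other strand, Mrpl15 and Mrps18c a gene on the same strand and Mrpl53 one on each.

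**Figure D5:**
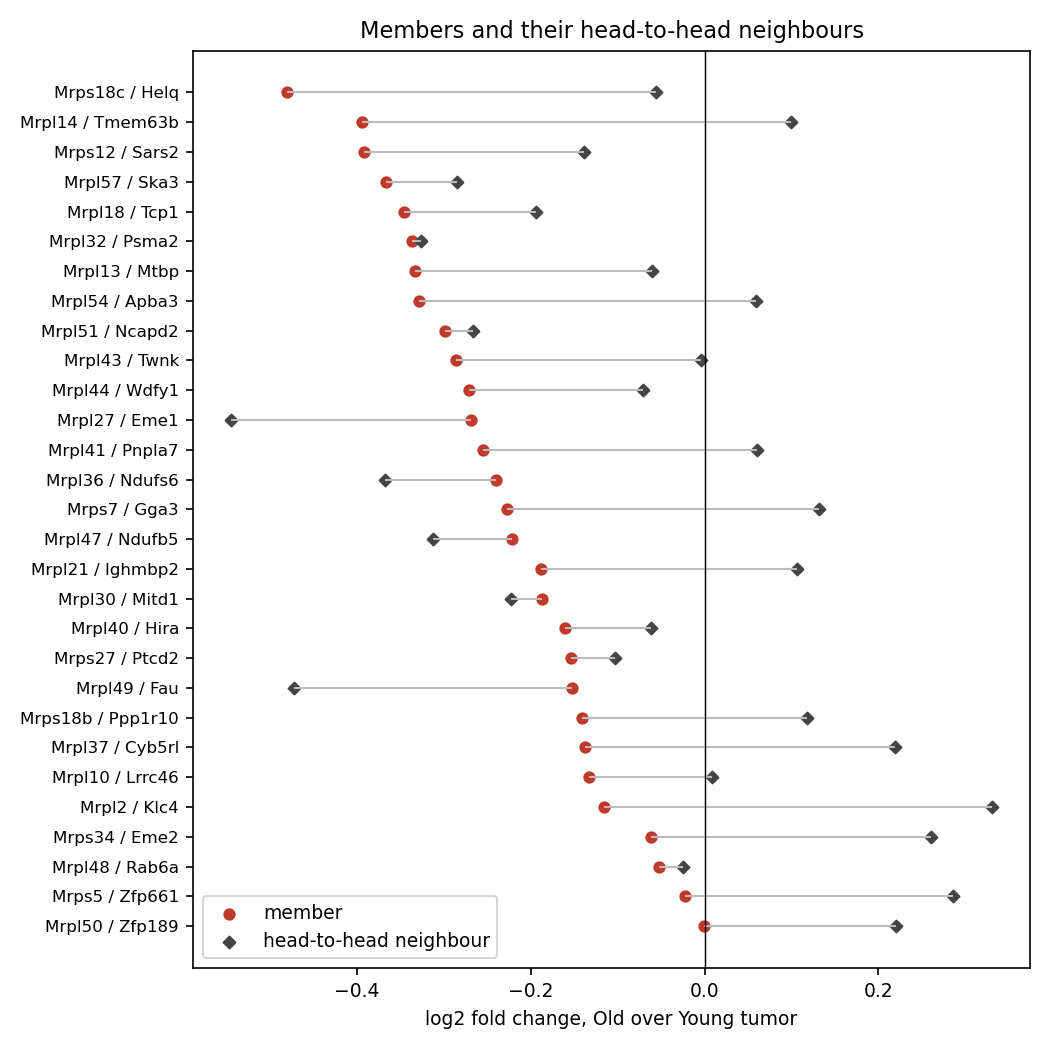
Log2 fold change, Old tumor over Young tumor, of 29 members (red circles) and the gene outside the set that starts within 1000 bases on the opposite strand (dark diamonds), 1 pair per row, ordered by the member. The diamonds spread on both sides of 0, with 17 of 29 below it, while all 29 circles lie at or below 0.

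Genes that work with the mitochondrial ribosome did not pass edgeR's test in any of the lists for that machinery. Counts at an unadjusted p under 0.05 and DESeq2 calls are given with each. A list of 7 genes outside the Mrpl and Mrps names held mitoribosomal proteins and Oxa1l, an insertase that binds the ribosome. Of these, 5 had fold changes below 0, 4 of them at an unadjusted p under 0.05 by edgeR. The median was −0.18, and DESeq2 called none. Above 0 were Oxa1l at 0.08 and Ptcd3 at 0.05. Gadd45gip1, a large-subunit protein, was at −0.19 (SE 0.07; adjusted p = 0.12, edgeR), Chchd1, of the small subunit, at −0.27 (SE 0.11; adjusted p = 0.184, edgeR) and Dap3, a GTP-binding small-subunit protein, at −0.18 (SE 0.08; adjusted p = 0.213, edgeR). Of 24 genes for assembly and rRNA modification, none passed with edgeR or DESeq2 and 16 were below 0, 2 of them at an unadjusted p under 0.05, with a median of −0.04. The assembly GTPase gene Noa1 was at −0.21 (edgeR adjusted p = 0.197), Malsu1, whose protein docks on the large subunit beside Mrpl14, at −0.23 (edgeR adjusted p = 0.213) and Mterf3 at −0.19 (edgeR adjusted p = 0.256).

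Of 15 mitochondrial translation factors, none passed with edgeR, 2 were lower and 2 higher at an unadjusted p under 0.05, and the median was −0.12. DESeq2 called Slirp and Tsfm lower. Slirp, the partner of Lrpprc in mitochondrial mRNA stability, was at −0.34 (SE 0.10; adjusted p = 0.077, edgeR), the elongation factor gene Tsfm at −0.29 (SE 0.09; adjusted p = 0.0915, edgeR) and the recycling factor gene Gfm2 at 0.16 (SE 0.07; adjusted p = 0.18, edgeR). Of 17 mitochondrial aminoacyl-tRNA synthetases, none passed with edgeR or DESeq2 and 5 were below 0, with a median of 0.02. Vars2, for valine, was the 1 gene at an unadjusted p under 0.05, at 0.23 (SE 0.10; adjusted p = 0.208, edgeR), Hars2 at 0.13 and Iars2 at 0.13. Of 10 genes of mitochondrial transcription and genome maintenance, none passed with edgeR and the median was 0.01. DESeq2 called Tfam alone, also the 1 gene at an unadjusted p under 0.05. Tfam, which packages the mitochondrial genome, was at −0.23 (SE 0.07; adjusted p = 0.0926, edgeR), Ssbp1 at −0.12 and Polrmt, the RNA polymerase, at 0.13. None of 11 nuclear regulators of mitochondrial genes passed with edgeR or DESeq2, and Mycn was the 1 at an unadjusted p under 0.05. It was at −0.40 (SE 0.16; adjusted p = 0.166, edgeR), Max at −0.11 and Ppargc1a at 0.25. Gabpa, the subunit of GABP that binds the ETS core, was at 0.02 (SE 0.11; adjusted p = 0.941, edgeR) and was chosen for that role, after its values were seen.

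The 13 mitochondrially encoded mRNAs, which this ribosome translates, had a median log2 fold change of −0.06, 8 below 0 and none past the threshold of edgeR's test. mt-Nd3, which DESeq2 called and which was the 1 gene at an unadjusted p under 0.05, encodes a complex I subunit and was at −0.55 (SE 0.17; adjusted p = 0.0954, edgeR), with 307 ± 82.9 CPM in Old tumor libraries and 449 ± 83.9 CPM in Young tumor libraries (SD, n = 6 each). mt-Atp8 was at −0.28 and mt-Co2 at −0.15. The 13 mRNAs summed to levels from 31842 to 44615 CPM in Old tumor libraries and from 26934 to 50843 CPM in Young tumor libraries, so the groups overlapped. Nuclear genes for respiratory complexes and ATP synthase, 77 tested, had a median of −0.31 with 21 lower, none higher and 75 below 0, and Cox5b of complex IV was at −0.44 (SE 0.06; adjusted p = 0.0144, edgeR). Cytosolic ribosomal protein genes, 80 tested, had a median of −0.34 with 15 lower, none higher and 80 below 0, and Rps21 was at −0.56 (SE 0.10; adjusted p = 0.0302, edgeR). Both of these lists are short too, with median relative effective lengths of 0.26 and 0.24, and whether their fold changes differ from those of the members was not tested.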

How the data were processed

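RNA from tumor pieces with an RNA integrity number above 8 was poly(A)-selected and made into strand-marking NEBNext libraries, per the labels' protocols. Reads were processed with cutadapt 2.3, STAR 2.7.0d and RSEM 1.3.1 on mm10, per the submitters' processing notes. No source used here names the annotation or the strand setting. The authors deposited expected counts, which RSEM estimates by sharing ambiguous reads, and TPM, which are scaled by transcript length. Expected counts were whole for 86.0% to 88.2% of entries in a library (tolerance 0) and were rounded for testing.

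Libraries were grouped by their labels, 6 Old tumor and 6 Young tumor, with no block. The test was edgeR 4.0.16 (R 4.3.3), two-sided quasi-likelihood F tests after filterByExpr and TMM scaling, Benjamini-Hochberg over 16013 genes, adjusted p under 0.05. Log2 CPM used a prior count of 2. The SE is the absolute log2 fold change over the root of its F value. Coordinates and exon lengths came from a GENCODE annotation of GRCm38. Trends on length were removed per library with a natural spline of 4 degrees of freedom entered as an offset, and effective lengths used libraries with at least 5 counts and 0.5 TPM. Scores are mean log2 CPM of a list's genes.

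Named members are those past the threshold, the 8 of smallest p in each subunit, the 3 with the largest fold change above 0, the 3 highest and 3 lowest by TPM, the Mrps18 paralogs and Mrps30, and the 3 genes of smallest p in each pathway list. Other genes were named after their values were seen. The Mrpl57 synonym Mrp63 in a list has no row of its own, and Mrm2, Mrm3 and Twnk were matched by gene ID. Members, lists and tests were chosen with earlier results of these data known. Alternatives were scaling by RLE, by upper quartiles or by total counts, no filter and a filter of 1 CPM in 6 libraries, DESeq2 1.42.0, limma-voom with quality weights on the libraries and limma 3.58.1 on log2(TPM + 1) and log2(TPM + 0.1), GC and length trends, marker scores as covariates, a replicate block and each library left out. The fit was also tested on simulated data.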

Additional observations from a re-analysis of the deposited data

Results flagged for a closer look

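A gap between 1 library and the rest of its group, wide against the range of the group (Dixon's test), was looked for in 56 groups of 6 libraries, and 2 were found. Chance gives about 1 in 20 groups. Mrps18c stood at 31.4 CPM in Old tumor 1, and the nearest other Old tumor library had 26.5 CPM. Mrps7 stood at 56.0 CPM in Young tumor 2, and the nearest other Young tumor library had 47.9 CPM. Mrps18c had a log2 fold change of −0.55 without Old tumor 1, and Mrps7 of −0.18 without Young tumor 2.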

How the results depend on the processing

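Of the members, 9 were lower in Old tumor as reported. The share of all tested genes called lower, 1.47% as reported, follows each count in brackets. The count was 10 with RLE factors (1.75%), 9 with upper-quartile scaling (1.54%), 4 with total counts alone (0.893%), 3 with no filter on low counts (0.376%), 13 with the filter of 1 CPM in 6 libraries (2.53%), 32 with DESeq2 (5.41%) and 17 with limma-voom (3.49%). It was 0 on log2(TPM + 1) (0.3%) and on log2(TPM + 0.1) (0.275%), 12 with the GC trend removed (2.13%), 4 with the exon length trend removed (0.6%) and 0 with the effective length trend removed (0%). It was 0 with the acinar score (0.0687%) and 0 with the cell division score (0%) as covariate. At an adjusted p under 0.1 it was 29 (4.53%), and under 0.01 it was 0 (0%). Leaving out 1 library gave 0 to 23 (0% to 4.17%), and leaving out both Old tumor 1 and Old tumor 5 gave 10 (2.45%), of which 7 were among the 9. No member was called higher under any of these settings. The cause of these changes was not tested.

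The median log2 fold change of the members was −0.0808 on log2(TPM + 1) and −0.0833 on log2(TPM + 0.1), and −0.137 with the effective length trend removed. For the large subunit these values were −0.110, −0.112 and −0.143, and for the small subunit −0.0348, −0.0352 and −0.0802. Leaving out 1 library gave −0.25 to −0.20 over all members, −0.27 to −0.23 for the large and −0.19 to −0.13 for the small subunit. The mean share of the members in Old tumor over Young tumor was 0.926 for TPM, against 0.884 for counts.

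Signs turned in 3 named genes, none of them called with edgeR in any of these settings; DESeq2 called Mrps7 lower. Mrpl4, at 0.01 as reported, was at −0.000735 without the filter, −0.00238 with the stricter filter, −0.0790 with limma-voom, −0.0431 with the GC trend removed, −0.0456 with the acinar, −0.124 with the cell division and −0.00436 with the ductal score, −0.0816 without Old tumor 1 and Old tumor 5, and between −0.0329 and 0.0919 with 1 library left out. Mrps18a was at 0.0246 and 0.0249 on log2(TPM + 1) and log2(TPM + 0.1), and Mrps7 at 0.00501 and 0.00517.

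The labels state no link between libraries of the same replicate number, and the values gave no clear sign of pairing. Same-numbered libraries had correlations of their deviations from −0.23 to 0.14, and 3 of 12 libraries correlated best with their own number. With the replicate block 0 members were lower and Mrpl4 was at −0.00920, and with the replicate block and the length offset 0 were lower. Neither fit called any of the 16013 genes lower. The members' median was −0.225 with the block and −0.199 with block and offset, against 0.022 and −0.021 over all tested genes. In these fits 77 and 74 members were below 0, and 45 and 34 were lower at an unadjusted p under 0.05 (edgeR). Such counts were not made over all tested genes for either fit, so they have no background beside them.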
